A study of Mus musculus with 24 samples.

Results

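Dlk1 and a set of 9 further imprinted genes were followed across 24 arrays of mouse thyroid tissue: Meg3, H19, Igf2, Peg3, Mest, Cdkn1c, Plagl1, Ndn and Grb10. The genes were found through the probe sets annotated to their symbols, with older symbols updated. All 10 of the 10 genes were measured, by 27 of the 22690 probe sets and as 10 of 12395 features. Dlk1 had been chosen by its levels in these same tissue groups, so its own values are given as a description without a test. The question was whether Dlk1 moved together with other imprinted genes.

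Imprinted genes are read from the maternal or the paternal copy alone, and many of them control growth before and around birth. In mice several belong to a co-regulated network that is active in embryonic tissue and is switched down as organs mature. Dlk1, Meg3 and Rian lie in a shared cluster on chromosome 12, in which Dlk1 is read from the paternal copy and the non-coding RNAs Meg3 and Rian from the maternal copy. Igf2 and H19 form another such pair on chromosome 7, with common enhancers.

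The arrays were Affymetrix Mouse430A_2 chips hybridised with biotin-labelled RNA. They comprised 4 papillary cancers (PTC), which keep follicular features, 5 anaplastic cancers (ATC), which have largely lost them, 9 recurrent tumours and 6 pools of normal thyroid glands. The title of the series speaks of resistance to the inactivation of BRAF, a kinase of the MAPK cascade. The sources used here do not give the genotype, strain, age and drug exposure of the tumours. Whether each tumour is from an animal of its own is not stated. The p-values therefore reflect only how far these arrays spread within a group, which may be technical. The titles mark 4 normal pools with WT and the other 2, normal pools 5 and 6, with Cre. Titles with the letters JK were on 4 PTC, 2 ATC, 3 recurrent and 4 normal arrays, while a bare number stood on 3 ATC and 6 recurrent arrays. Only the kind of title is known, not what it stands for.

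Some arrays stood apart before any result was drawn. The level of Braf was 10.29 to 11.98 on the ATC arrays and 11.14 on the array labelled recurrent 2, against 5.62 to 7.14 on the other 8 recurrent arrays. It was 7.58 to 7.95 on the PTC arrays and 5.95 to 6.67 on the normal pools. The array labelled recurrent 3 had the smallest SD of all values, 2.23. The log2 difference between the 3′ and 5′ Gapdh probe sets, a sign of RNA quality, was 1.11 to 1.60 on PTC arrays. It was 0.82 to 0.96 on JK and 0.06 to 0.15 on bare-number ATC arrays, 0.36 to 1.07 on JK and -0.02 to 0.17 on bare-number recurrent arrays, and 0.64 to 0.98 on normal arrays. Values are log2 levels throughout, and a difference of 1 stands for a doubling. A gene was called when the limma p-value, adjusted by Benjamini-Hochberg over all 12395 features, was under 0.05.

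Dlk1 encodes a membrane protein with repeats like those of Notch ligands that holds back fat cell differentiation. Its levels in the PTC were 14.24, 14.29, 14.36 and 14.11. In the ATC they were 6.93, 7.39, 8.06, 5.89 and 7.30. The 4 PTC lay close together and far above every ATC. In the recurrent tumours Dlk1 ran between 5.98 and 10.68 with a median of 6.42, and in normal pools between 6.22 and 7.11 with a median of 6.48. Of the recurrent arrays, only 1 (10.68) and 7 (9.46) lay outside the range spanned by the ATC and normal arrays. The means were 14.25 ± 0.10 in PTC (SD, n = 4), 7.12 ± 0.79 in ATC (n = 5), 7.32 ± 1.68 in recurrent tumours (n = 9) and 6.53 ± 0.31 in normal pools (n = 6). PTC thus exceeded normal by 7.72, while ATC and recurrent tumours exceeded normal by 0.59 and 0.79. These smaller differences rest on few arrays. That of ATC was 0.35 without ATC 3 and 0.90 without ATC 4, and that of recurrent tumours was 0.37 without array 1 and 0.53 without array 7. With the kind of title as a block they were 1.19 and 1.47, and within JK titles the recurrent difference was 1.90.

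Meg3 was high in the PTC as well. This long non-coding RNA had levels of 14.40, 14.62, 14.52 and 14.18 in the PTC, against 10.89, 10.97, 11.03, 11.02, 8.97 and 11.01 in the normal pools. Every PTC lay above every normal pool, and normal pool 5 lay lowest. The difference was 3.78 (SE 0.68), a rise with a limma adjusted p of 0.000508, and within JK titles it was 3.45 (limma adjusted p = 0.00346). Among the 9 members other than Dlk1, Meg3 was the sole gene called in PTC against normal, beside 6.16% of all features called higher and 8.0% called lower. All 5 Meg3 probe sets were higher in PTC, by 2.60 to 5.12. Both genes sit near the upper end of the scale in PTC, where differences may be compressed. This was not tested.

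Rian, the non-coding RNA next to Meg3 in the cluster, which carries small nucleolar RNAs, rose as well. Its levels were 12.29, 12.24, 12.41 and 12 in the PTC, against 7.83, 7.82, 7.85, 7.97, 6.45 and 7.95 in normal pools. The rise of 4.59 (SE 0.71) had a limma adjusted p of 0.000134, and within JK titles it was 4.37 (limma adjusted p = 0.00104). The 3 Rian probe sets differed by 4.18 to 5.16. Rian belongs to a list of other imprinted genes read from the maternal copy, described further on.

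In order along chromosome 12, the measured genes on either side of these 3 did not rise with them. The nearest measured gene before Dlk1, Wars, a tRNA synthetase, differed by 0.16 between PTC and normal (limma adjusted p = 0.649). Slc25a47 and Slc25a29, carriers of the mitochondrial membrane, differed by 0.25 and 0.36 and were not called. The nearest measured gene after Rian, Ppp2r5c, a phosphatase subunit, was lower in PTC by -0.53 (limma adjusted p = 0.0476). Genes of the cluster that lie between them but have no named probe set, such as Rtl1, Mirg and Dio3, were not analysed here.

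**Figure D1:**
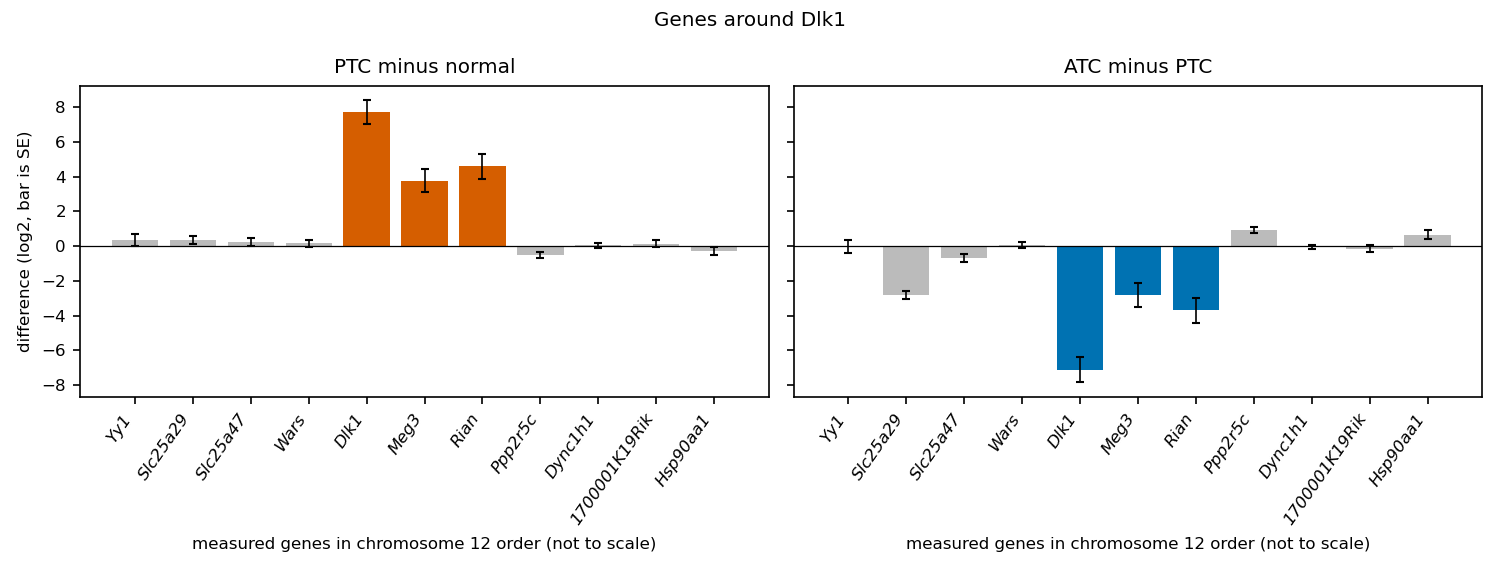
Differences in log2 level with their SE (bars) for 11 measured genes in chromosome 12 order, for PTC minus normal and ATC minus PTC. In PTC minus normal, Dlk1, Meg3 and Rian (coloured) are higher by 7.72, 3.78 and 4.59. The 8 genes around them lie between -0.53 and 0.36. In ATC minus PTC the coloured genes differ by -7.13, -2.83 and -3.70, and the 8 others lie between -2.82 (Slc25a29) and 0.91 (Ppp2r5c).

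The start regions of Dlk1 and Meg3 are printed because both genes were high in PTC. They run from 250 bases before to 50 bases after the start, on the + strand of chr12:109452573-109452872 and chr12:109540746-109541045 (RefSeq, assembly GRCm38.p6). Capitals mark the motif TGACGTCA, or its first 5 letters TGACG on either strand, and the box TATAAA on either strand.
Dlk1: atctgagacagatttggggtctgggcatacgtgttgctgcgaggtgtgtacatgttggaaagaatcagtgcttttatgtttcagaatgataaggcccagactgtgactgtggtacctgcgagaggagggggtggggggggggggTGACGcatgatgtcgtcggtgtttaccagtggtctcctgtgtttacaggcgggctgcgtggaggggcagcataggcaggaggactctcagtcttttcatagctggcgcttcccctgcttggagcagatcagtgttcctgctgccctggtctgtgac
Meg3: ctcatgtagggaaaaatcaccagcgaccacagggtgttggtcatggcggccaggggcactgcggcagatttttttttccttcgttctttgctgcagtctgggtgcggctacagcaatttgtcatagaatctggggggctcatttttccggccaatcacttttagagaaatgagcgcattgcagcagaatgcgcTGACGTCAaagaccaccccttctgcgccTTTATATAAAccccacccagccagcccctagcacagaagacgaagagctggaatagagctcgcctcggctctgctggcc

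The motif TGACGTCA, the full element read by cyclic AMP response factors, was found in the Meg3 start region 57 bases before the start and not in that of Dlk1, which held TGACG alone. It stood in 2 of 16 start regions of the members and Rian, those of Meg3 and Peg3, and in 1.79% of 32851 mouse start regions. The box TATAAA was found in the Meg3 region 25 bases before the start and in no other of the 16, against 13.6% of all regions. Start regions were found for 8 of the 10 members, those of H19 and Cdkn1c being absent from the table used.

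**Figure D2:**
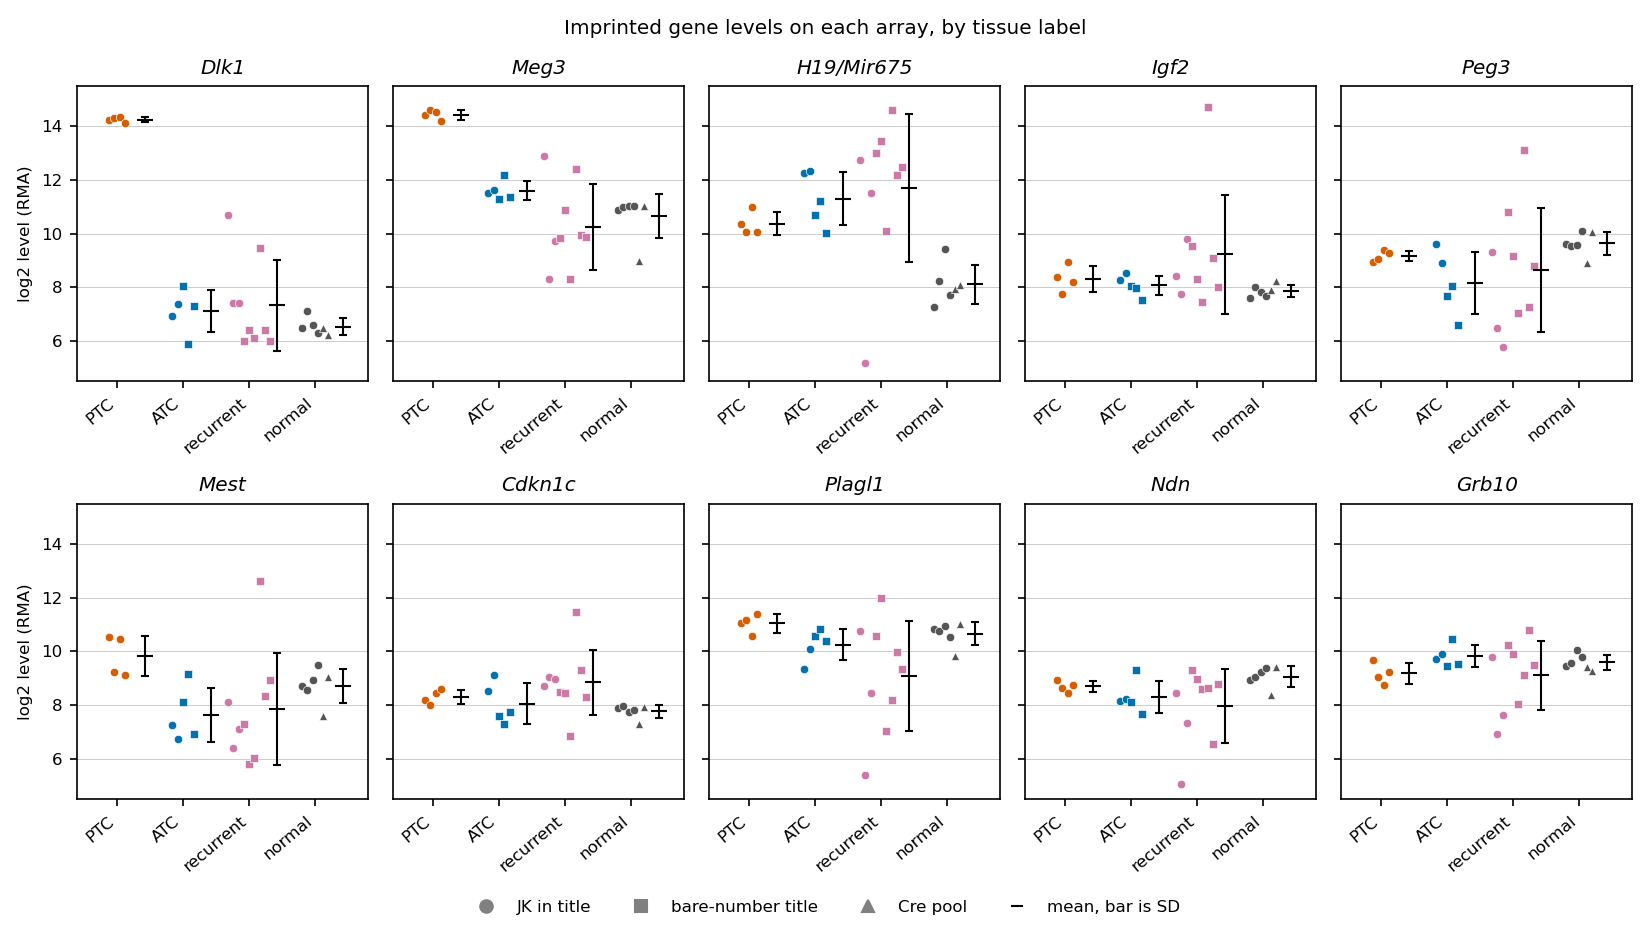
Log2 level of the 10 genes on each array (points, shaped by the kind of title) with group mean and SD (bars), for PTC, ATC, recurrent tumours and normal pools. Dlk1 and Meg3 stand high on all 4 PTC arrays, and the recurrent arrays spread most widely, with Igf2 at 14.73 on 1 array and H19/Mir675 at 5.17 on another.

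H19, a maternally read non-coding RNA that is abundant in the fetus, was measured by 1 probe set, annotated jointly to H19 and to Mir675, a microRNA gene that lies inside H19. The mature microRNAs cut from it are printed because the annotation names both genes. Their own levels were not measured here. Capitals mark the seed, bases 2 to 8, which differs between the arms (RefSeq, GRCm38.p6, - strand of chromosome 7, starting at 142577112 for the 5p arm and 142577078 for the 3p arm).
miR-675-5p: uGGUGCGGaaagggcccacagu
miR-675-3p: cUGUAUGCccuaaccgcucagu

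The H19/Mir675 probe set was high in all 3 kinds of tumour. It read 10.36, 10.07, 10.98 and 10.06 in PTC and 12.24, 12.33, 10.69, 11.21 and 10.02 in ATC, against 7.27, 8.25, 9.44, 7.71, 7.93 and 8.06 in normal pools. No PTC or ATC array overlapped the normal pools. ATC exceeded normal by 3.19 (SE 1.05), a rise with a limma adjusted p of 0.0216, and PTC by 2.26 (SE 1.12), which was not called (limma adjusted p = 0.204). The call in ATC was narrow: it was lost without ATC 1 (limma adjusted p = 0.0522) or ATC 2 (0.0524), within JK titles (difference 4.12, 0.0598), and with the kind of title as a block (difference 2.45, 0.173).

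Recurrent tumours had H19/Mir675 levels of 5.17 to 14.62 with a median of 12.49, against 7.27 to 9.44 with a median of 8.0 in normal pools. Of 9 arrays, 8 lay above every normal pool, and the array labelled recurrent 2 lay below them all. The rise was 3.59 (SE 0.92, limma adjusted p = 0.0041) and became 4.54 without recurrent arrays 2 and 3 (limma adjusted p = 2.42e-06). It was not called with the kind of title as a block (2.77, limma adjusted p = 0.101) or within JK titles (1.65, limma adjusted p = 0.351).

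Igf2, the fetal growth factor that shares enhancers with H19, did not pass the test in any comparison of the fit over all 24 arrays. Its levels were 8.36, 7.74, 8.93 and 8.20 in PTC and 8.28, 8.51, 8.03, 7.98 and 7.54 in ATC, against 7.58, 7.99, 7.82, 7.67, 7.89 and 8.23 in normal pools. These 3 groups overlapped. In recurrent tumours Igf2 ran between 7.43 and 14.73 with a median of 8.43, and the next highest array after array 7 stood at 9.79. The difference from normal was 1.36 (SE 0.71, limma adjusted p = 0.147), and without array 7 it was 0.68 (0.0908). With array weights it was 1.06 and was called (limma adjusted p = 0.0396). A second Igf2 probe set, at a lower level, differed by 0.41.

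The growth restrainers and regulators of the network were not called in the tumours. Cdkn1c, an inhibitor of cyclin-dependent kinases, averaged 8.31 ± 0.26 in PTC (SD, n = 4), 8.06 ± 0.75 in ATC (n = 5), 8.85 ± 1.21 in recurrent tumours (n = 9) and 7.77 ± 0.24 in normal pools (n = 6). Its 4 PTC values, 8.02 to 8.58, lay above the normal range of 7.30 to 7.96, yet the difference of 0.54 was not called (limma adjusted p = 0.598). Grb10, an adaptor that binds the insulin and IGF receptors, averaged 9.18 ± 0.39 in PTC, 9.82 ± 0.41 in ATC, 9.10 ± 1.30 in recurrent tumours and 9.59 ± 0.28 in normal pools. Plagl1, a zinc finger factor that in mice regulates other imprinted genes, averaged 11.05 ± 0.35 in PTC, 10.25 ± 0.58 in ATC, 9.08 ± 2.04 in recurrent tumours and 10.66 ± 0.43 in normal pools. In other fits some differences of these genes were called. Within JK titles Cdkn1c was higher in ATC than in normal pools by 0.97 (limma adjusted p = 0.00334). With the kind of title as a block, Plagl1 differed by -2.46 between recurrent tumours and normal (limma adjusted p = 0.0409).

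Mest, Peg3 and Ndn are read from the paternal copy, as Dlk1 is. Mest, which encodes a protein related to hydrolases, read 10.52, 9.22, 10.46 and 9.14 in PTC, against 8.72, 8.55, 8.93, 9.49, 7.61 and 9.06 in normal pools. The groups overlapped, and the difference of 1.11 was not called (limma adjusted p = 0.496). Peg3, a zinc finger protein, averaged 9.16 ± 0.20 in PTC (SD, n = 4), 8.16 ± 1.16 in ATC (n = 5), 8.64 ± 2.31 in recurrent tumours (n = 9) and 9.63 ± 0.44 in normal pools (n = 6). Ndn, a protein of the MAGE family, averaged 8.70 ± 0.21 in PTC, 8.30 ± 0.60 in ATC, 7.96 ± 1.39 in recurrent tumours and 9.06 ± 0.38 in normal pools.

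Across PTC and normal, 3 of the 9 members did not overlap between groups (Meg3, H19/Mir675 and Cdkn1c), beside 34.3% of all features. Of the 9, 6 differences were above 0 and 3 below, with a median of 0.45, against -0.01 over all features. The shared estimate of the spread includes the recurrent arrays, in which members vary most. In a fit of the PTC and normal arrays alone, 4 of the 9 were called, beside 45.8% of all features, so that the members' share was near the background. These were Meg3, H19/Mir675 (limma adjusted p = 0.000381), Cdkn1c (0.0122) and Mest (0.0334), all higher in PTC.

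Against normal pools, ATC had 1 of the 9 members called higher (H19/Mir675) and 0 called lower, beside 15.2% and 19.1% of all features. Meg3 and H19/Mir675 did not overlap between the groups, against 34.1% of features. Meg3 read 11.51, 11.64, 11.30, 12.20 and 11.35 in ATC, a difference of 0.95 from normal that was not called (limma adjusted p = 0.266). In a fit of ATC and normal arrays alone, 4 of the 9 were called, beside 51.0% of all features: Meg3 and H19/Mir675 higher, Peg3 lower by -1.47 (limma adjusted p = 0.0155) and Ndn lower by -0.77 (0.0309).

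Recurrent tumours had H19/Mir675 called higher than normal and 0 of the 9 called lower, beside 14.5% and 19.3% of all features. None of the 9 separated the groups, against 8.02% of features. The differences of Cdkn1c (1.07, limma adjusted p = 0.056), Plagl1 (-1.58, 0.0735) and Ndn (-1.10, 0.0761) came nearest to the threshold. Within JK titles, 6 of the 9 were called, beside 41.5% of all features: Cdkn1c higher by 1.05, and Peg3, Plagl1, Ndn, Mest and Grb10 lower by -1.60 to -2.57. These 3 JK recurrent arrays include arrays 2 and 3. Each call used 1 probe set per gene, and others of the same gene differed. Over all recurrent arrays, the Peg3 probe sets not used differed from normal by -0.71 and 0.39, and that of Plagl1, which was dim, by 0.0. Those of Grb10 differed by -0.30 and -0.04, and those of Ndn by -0.32 to -1.19. On recurrent array 3 Ndn read 7.32 by the probe set used and 10.61 by another.

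Between ATC and PTC, Dlk1 was lower in ATC by -7.13, and Meg3 and Rian fell with limma adjusted p-values of 0.0073 and 0.00131. Meg3 fell by 2.83 (SE 0.70) and Rian fell by 3.70 (SE 0.74), and every ATC array lay below every PTC array for both. Within JK titles the differences were -2.86 (limma adjusted p = 0.0417) and -4.13 (0.00875). Meg3 was 1 of 9 members called lower, with 0 higher, beside 9.34% and 7.8% of all features. It was also the 1 member without overlap, against 32.5% of features. Mest was lower in ATC by -2.19 without a call (limma adjusted p = 0.11), and was called in a fit of the ATC and PTC arrays alone (limma adjusted p = 0.00928). Of the flanking genes, Wars differed by 0.05, Slc25a29 fell by 2.82 (limma adjusted p = 3.67e-08), Slc25a47 fell by 0.67 (0.0466) and Ppp2r5c rose by 0.91 (0.00145). The 2 comparisons share the PTC arrays.

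Between recurrent tumours and ATC, 0 of the 9 members were called by limma, with 1 at an unadjusted p under 0.05, beside 1.19% of features called higher and 3.12% called lower. None separated the groups, against 0.887% of features. The Dlk1 difference was 0.20, that of Meg3 -1.36 (limma adjusted p = 0.21) and that of Rian -0.85 (0.517). Within JK titles the Dlk1 difference was 1.35, where array 1 is 1 of 3, and within bare-number titles -0.36. It turned to -0.22 without recurrent array 1, to -0.06 without recurrent array 7 and to -0.10 without ATC 4. Without recurrent arrays 2 and 3, 0 of the 9 were called as well, beside 10.2% of all features.

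Markers of other cells differed between the groups in which the members differed. In bulk tissue, fewer cells of a type and less RNA per cell cannot be told apart. Over all features, 6.16% were called higher and 8.0% lower in PTC against normal, and 15.2% higher in ATC against normal. Of 6 C cell and neuroendocrine markers, 5 fell in PTC against normal, and their mean level was 5.60 to 6.38 in PTC and 7.37 to 9.68 in normal pools. Of 10 adipocyte markers, 5 fell and 1 rose, with mean levels of 7.81 to 8.47 in PTC and 8.50 to 10.93 in normal. Of 11 fibroblast and matrix markers, 2 rose in PTC and 7 in ATC, with mean levels of 10.38 to 11.60 in PTC, 11.52 to 12.62 in ATC, 9.91 to 12.50 in recurrent tumours and 9.87 to 10.34 in normal pools. Skeletal muscle markers had mean levels of 9.02 to 10.42 in PTC, 7.83 to 11.39 in ATC, 5.63 to 12.98 in recurrent tumours and 8.66 to 10.90 in normal pools, and 0 of 12 were called in PTC against normal. Thyroid follicular markers ran from 8.56 to 9.21 in PTC, 5.71 to 7.77 in ATC, 5.18 to 8.11 in recurrent tumours and 9.80 to 10.30 in normal pools. The 3′ to 5′ Gapdh difference was also higher on every PTC array than on every normal array. The part of these cells and of RNA quality in the levels of Dlk1, Meg3, Rian and H19/Mir675 was not tested.

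Other imprinted genes were taken from a list of 22 paternally and 34 maternally read genes, of which 15 and 26 were measured. In PTC against normal, 7 of the 41 were called higher and 4 lower, beside 6.16% and 8.0% of all features. The median difference was -0.01, equal to that over all features. After Rian, the largest called differences were those of Ddc, an enzyme of amine synthesis, which fell by 3.07 (limma adjusted p = 0.0125), and Nnat, a membrane proteolipid of neural and endocrine cells, which fell by 2.32 (0.000202). Both fell in the comparison in which 5 of the 6 neuroendocrine markers fell, and the part of such cells in their levels was not tested. Phlda2, a restrainer of placental growth, rose by 2.07 (0.0238), a call lost without PTC 2, 3 or 4.

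Igf2r, the receptor that removes IGF2 from the cell surface, rose in PTC by 1.88 (SE 0.42, limma adjusted p = 0.00357). It read 11.51, 11.76, 11.88 and 11.98 in PTC, against 9.54 to 10.10 with a median of 9.96 in normal pools. Airn, the non-coding RNA that is read across Igf2r in the opposite direction from the paternal copy, averaged 9.54 in PTC and 8.20 in normal pools, a rise of 1.35 (limma adjusted p = 0.0282) that was not called with the kind of title as a block (1.29, 0.0654). In ATC against PTC, Igf2r fell by 2.11 (limma adjusted p = 0.00171) and Airn fell by 1.66 (0.00838), with ATC means of 9.68 and 7.88. All PTC values of both genes lay above all ATC and normal values.

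In ATC against normal 8 of the 41 were called higher and 8 lower, beside 15.2% and 19.1% of all features. In recurrent tumours against normal 3 were higher and 7 lower, beside 14.5% and 19.3%. Tfpi2, an inhibitor of serine proteases in the matrix, rose by 3.82 in ATC (limma adjusted p = 2.19e-06) and by 2.82 in recurrent tumours (1.46e-05). Nnat fell by 2.45 in ATC and fell by 2.57 in recurrent tumours. Rasgrf1, an activator of Ras, averaged 8.68 ± 0.94 in ATC (SD, n = 5), against 6.66 ± 0.53 in PTC (n = 4) and 5.86 ± 0.34 in normal pools (n = 6). In recurrent tumours, at 5.64 ± 1.04 (n = 9), it fell by 3.04 from ATC (limma adjusted p = 0.000162), though within JK titles the difference of -1.93 was not called (0.148). In that comparison 1 of the 41 was called higher and 3 lower, beside 1.19% and 3.12% of all features.

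Genes around the members in their pathways changed in part. Of 16 genes of the insulin-like growth factor axis, 4 were called higher and 1 lower in PTC against normal. The shares over all features were 6.16% and 8.0%. Igf1r, the receptor that carries IGF signals, rose by 1.46 (limma adjusted p = 0.000245), and Igf2bp1, which binds Igf2 RNA, was higher by 2.35 (0.0387) with the call lost when any 1 array of either group was left out. In ATC against PTC, Igf1r fell by 2.05 (limma adjusted p = 5.56e-06) and Irs2, a docking protein of that receptor, fell by 1.58 (0.000447). Igfbp3, a carrier of IGFs, rose in ATC by 2.82 over normal (limma adjusted p = 4.07e-06) and fell by 2.33 from ATC in recurrent tumours (0.000148), with -2.25 and no call within bare-number titles (0.0911). Igfbp2, another carrier, rose in recurrent tumours by 3.15 over normal (limma adjusted p = 0.00327), a call lost with the kind of title as a block (2.69, 0.0599).

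Of 22 Notch pathway genes, 1 was called higher and 2 lower in PTC against normal, where Dlk1 was highest. The shares over all features were 6.16% and 8.0%. Dll3, a Notch ligand, fell by 1.06 (limma adjusted p = 0.00887). In ATC against PTC, 4 rose and 2 fell, beside 7.8% and 9.34% of all features. Among them the ligand Dll4 rose by 2.05 (limma adjusted p = 0.000216). Dll4 fell by 1.92 from ATC in recurrent tumours (limma adjusted p = 0.000207), and was not called within JK titles (-1.20, 0.0872) or bare-number titles (-2.33, 0.0865). In recurrent tumours against normal, 2 of the 22 rose and 9 fell, beside 14.5% and 19.3% of all features. Notch1 was lower by -1.12 (limma adjusted p = 0.000334) and the target gene Hes1 by -1.11 (0.00321). Of 12 genes of DNA methylation and imprint upkeep, 1 was called higher in PTC against normal, beside 6.16% of all features. This was Uhrf1, which guides methylation to newly copied DNA (1.61, limma adjusted p = 0.00202). Uhrf1 rose by 2.12 in ATC (2.08e-05) and by 2.37 in recurrent tumours (8.7e-07).

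The recurrent tumours differed widely among themselves in the imprinted genes. The median SD of the 10 members was 0.31 in PTC, 0.68 in ATC, 1.86 in recurrent tumours and 0.41 in normal pools, against 0.14, 0.27, 0.52 and 0.18 over all features. Array 7 held the highest recurrent level of 5 of the 10 members: Igf2 at 14.73 (next 9.79), H19/Mir675 at 14.62 (next 13.43), Peg3 at 13.13 (next 10.82), Mest at 12.64 (next 8.93) and Cdkn1c at 11.48 (next 9.30). It was second in Dlk1 at 9.46 and in Meg3 at 12.41, after array 1 at 10.68 and 12.91. Plagl1 on array 7, at 8.19, lay below the median of the other 8, 9.66.

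Array 7 also held the highest recurrent level in 13 of the 41 other imprinted genes, while it was highest in 14.5% of all features. These included Zim1, a zinc finger gene beside Peg3 (7.64, next 4.11), Slc38a4, an amino acid carrier of the placenta (10.55, next 7.93), Igf2r (12.48, next 11.06), Airn (10.37, next 9.12), Ddc (9.84, next 7.93) and Rian (10.45, next 10.43 on array 1). Array 7 was chosen after its values were seen, and no test was made of it. Its mean level of skeletal muscle markers was 7.27 and of fibroblast and matrix markers 12.15, against a range over the 9 recurrent arrays of 5.63 to 12.98 and 9.91 to 12.50.

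At the other end, the array labelled recurrent 2 held the lowest recurrent level of 4 of the 10 members, against 13.1% of all features. It read 5.17 in H19/Mir675 (next 10.09), 5.41 in Plagl1, 5.06 in Ndn and 6.92 in Grb10. Its mean level of skeletal muscle markers, 5.63, was the lowest of the 9 recurrent arrays as well, and the part of muscle tissue in these levels was not tested.

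**Figure D3:**
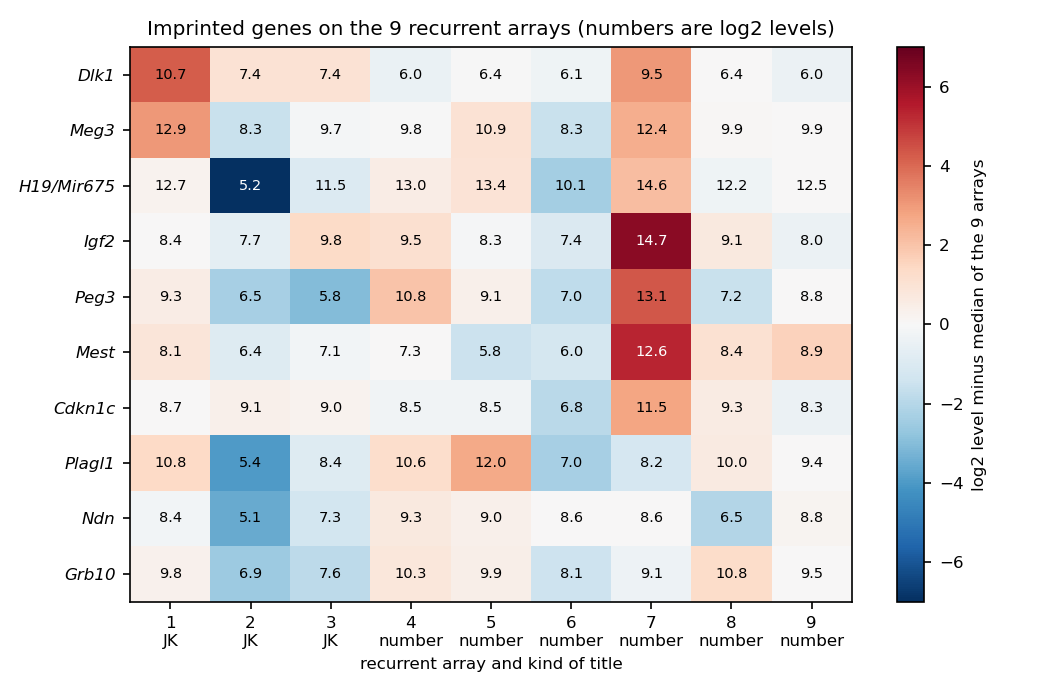
Log2 levels of the 10 genes (numbers) on the 9 recurrent arrays, coloured by the level minus the median of the 9. Array 7 is highest in Igf2 (14.73), H19/Mir675, Peg3, Mest and Cdkn1c, array 1 in Dlk1 and Meg3, and array 2 is low in H19/Mir675 (5.17), Plagl1, Ndn and Grb10.

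Within the recurrent group, Dlk1 fell into 2 sets of arrays, with arrays 1 and 7 above 9 and the other 7 below 8. Over all 9 arrays Pearson's r with Dlk1 was 0.77 for Meg3 (exact permutation p = 0.0206, adjusted over all 12394 genes to 1.0) and Spearman's rho was 0.45 (exact p = 0.23, adjusted 0.767). Over the 7 arrays without 1 and 7, r for Meg3 was -0.28 (exact permutation p = 0.572, adjusted 0.775) and rho -0.18 (exact p = 0.713). The relation over 9 arrays therefore rests on arrays 1 and 7. For the other 8 members, r over 9 arrays lay between -0.06 (Grb10) and 0.54 (Cdkn1c). Over the 7 arrays it was -0.78 for Ndn (exact permutation p = 0.05, adjusted 0.266), -0.74 for Peg3 (0.0615, adjusted 0.284), 0.17 for Igf2 and 0.53 for Cdkn1c. Among these 7, Dlk1 stood at 7.43 and 7.42 on JK arrays 2 and 3, and at 5.98 to 6.42 on the bare-number arrays. Its level there cannot be told apart from the kind of title. The r for Ndn over these 7 arrays came from 1 of its 8 probe sets. On array 3 that probe set read 7.32, while other Ndn probe sets that were not dim read 6.51, 7.66, 10.18 and 10.61. The r of Ndn over the 7 arrays was not computed by those other probe sets.

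No gene was called over the 9 arrays: of 12394 tested by two-sided exact permutation, 0 passed after adjustment by Pearson's r or by Spearman's rho, with 306 and 885 at an unadjusted p under 0.05. Within the 6 bare-number arrays, r was 0.95 for Igf2, 0.88 for Cdkn1c, 0.84 for Mest, 0.83 for Meg3 and 0.94 for Rian, with array 7 as the sole high one in Dlk1. It was 0.76 for Peg3, 0.66 for H19/Mir675, -0.01 for Ndn, -0.19 for Grb10 and -0.31 for Plagl1. Spearman's rho was 0.37 for Igf2, 0.60 for Cdkn1c, 0.31 for Mest and 0.77 for both Meg3 and Rian. The 3 JK arrays are too few for a value. Over the 6 normal pools, r with Dlk1 lay between -0.37 and 0.26 for the 9 members, and 658 genes had an unadjusted p under 0.05. With 6 arrays the smallest exact p is 0.00139, which cannot pass adjustment over 12394 genes unless very many of them share it, so the absence of calls among 6 arrays says nothing about these relations.

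**Figure D4:**
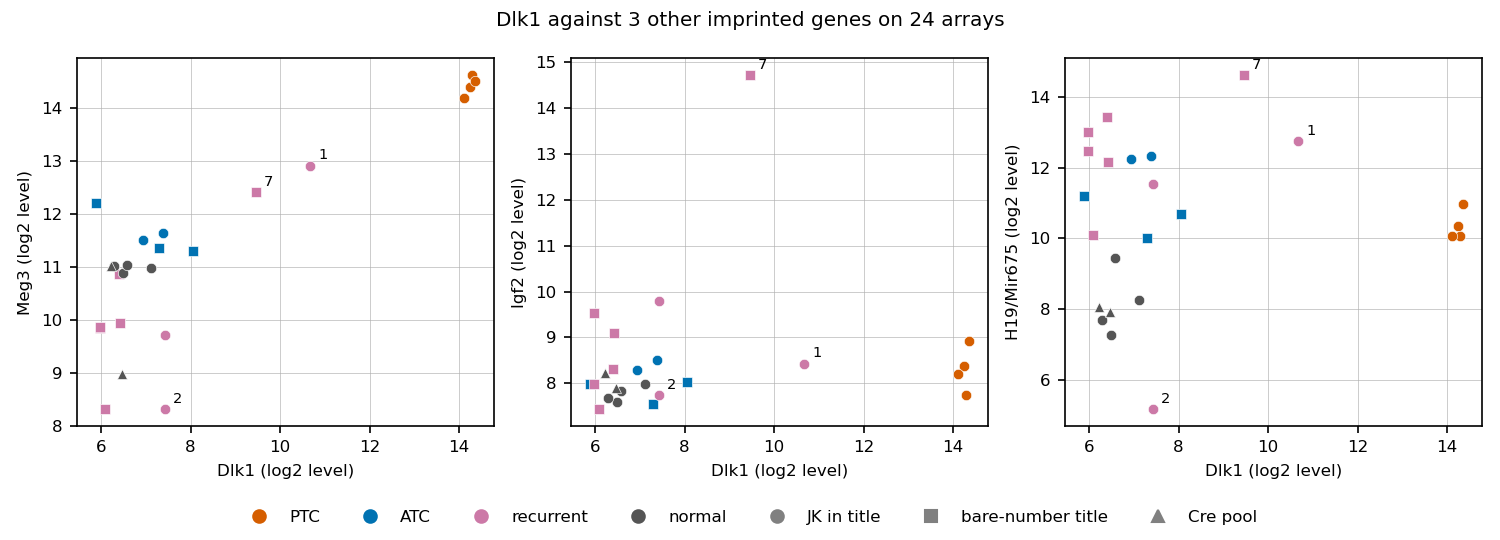
Log2 level of Meg3, Igf2 and H19/Mir675 (vertical axes) against that of Dlk1 (horizontal axes) on 24 arrays, coloured by group and shaped by the kind of title, with recurrent arrays 1, 2 and 7 numbered. The 4 PTC stand apart in Dlk1 and Meg3 at 14 and above, and their Igf2 lies between 7.74 and 8.93, within the range of the other groups.

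Ranked by likeness to Dlk1 over all 24 arrays, which mainly reflects the gap between PTC and the rest, Cntn3 (r = 0.94), Sftpb (0.94), Chil1 (0.92), Vash2 (0.92), Cyp24a1 (0.91) and Ctsw (0.91) stood first. Cntn3, a neural adhesion molecule, averaged 7.60 ± 0.42 in PTC (SD, n = 4), 4.03 ± 0.20 in ATC (n = 5), 4.36 ± 0.71 in recurrent tumours (n = 9) and 4.18 ± 0.20 in normal pools (n = 6). Rian ranked 11 of 12394 (r = 0.89), Meg3 21 (0.84) and Mest 824 (0.48). The other 7 members ranked between 2936 (Plagl1, 0.24) and 8832 (Grb10, -0.16). These values describe arrays that share groups and carry no test.

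Over the 9 recurrent arrays the first 6 genes by r were Dpf1 (0.99), Plac1 (0.97), Cplx1 (0.91), Sfmbt2 (0.91), Cubn (0.91) and Dcpp3 (0.89), and Rian (0.80) and Meg3 (0.77) ranked 36 and 53. The span of some was small: Dpf1 ran from 4.85 to 5.72 and Cplx1 from 7.67 to 8.32. Sfmbt2 is itself imprinted and read from the paternal copy, and Plac1 is a gene of the placenta. Sfmbt2 read 7.88 on array 1 and 7.94 on array 7, and 4.43 to 5.68 on the other 7. Plac1 read 8.80 on array 1 and 8.71 on array 7, and 4.68 to 6.79 on the other 7. As with Meg3, these values follow arrays 1 and 7.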

How the data were processed

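Arrays were Affymetrix Mouse430A_2. The authors deposited log2 levels for 22690 probe sets, which RMA in Partek gave per the submitters' processing notes. The sources used here give no versions. RMA forces arrays towards a common distribution, so a shift of all genes would not be seen. The precision of the fits rests on the number of arrays and their spread within groups. Probe sets with 1 symbol (20393) gave 12394 genes, each by its probe set of highest mean, plus the probe set shared by H19 and Mir675. Groups follow the tissue label, and replicate numbers follow record order. Models with 4 group means were fitted with limma 3.58.1 (R 4.3.3) over 12395 features, with Benjamini-Hochberg adjustment. Correlations used exact permutation over all pairings (SciPy 1.17.1). Both were tested on simulated data. Named genes are the 10 members, the 5 largest called differences among other imprinted genes per comparison, up to 3 called genes of each further list, and the 6 genes most like Dlk1; others were chosen after their values were seen. Members and lists were chosen with earlier results of these data known. Alternatives covered arrays in the fit, title block, probe set mean, array weights, dim genes, centring and left-out arrays.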

Additional observations from a re-analysis of the deposited data

Results flagged for a closer look

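In 40 groups of values (10 genes in 4 groups), 5 had a single array far from the others of its group by Dixon's criterion, which chance passes in about 1 in 20 groups. Recurrent array 7 was far above the others in Igf2, at 14.73 with the next at 9.79, and in Mest, at 12.64 with the next at 8.93. The array labelled recurrent 2 was far below in H19/Mir675, at 5.17 with the next at 10.09. Normal pool 5, titled Cre, was far below the others in Meg3, at 8.97 with the next at 10.89, and in Cdkn1c, at 7.30 with the next at 7.76. The other Cre pool, normal pool 6, read 11.01 in Meg3 and 7.91 in Cdkn1c. Normal pool 5 was the lowest pool in 6 of the 10 members and in 15 of 41 other imprinted genes, and in 27.7% of all features. Its mean levels of adipocyte markers (8.50) and of C cell and neuroendocrine markers (7.37) were the lowest of the 6 pools, and their part in its low Meg3 was not tested.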

How the results depend on the processing

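The 6 pools and the tumour arrays limit precision by their number, and signal over background was not given. Arrays also differed in the 3′ to 5′ Gapdh difference and in the SD of all values, as given above. No paired analysis was possible because replicate numbers only follow the order of records. Of 873 alternative values for the 45 differences of the 9 members other than Dlk1, 811 kept direction and side of the threshold, 38 came to be called, 6 lost the call (all H19/Mir675) and 18 turned direction. Of 97 Dlk1 values 1 moved by over 1 SD, while its small differences outside PTC moved by over 1.5 times as given above. Meg3 in PTC against normal and in ATC against PTC was called under every alternative run. Of 1991 values for 104 differences of other named genes, 151 lost the call and 5 turned, all of Rian in recurrent minus normal. The causes below were not tested, except that fits of 2 groups leave out the spread of the others. Settings that leave out recurrent arrays 2 and 3 were chosen after seeing the data.

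Genes called numbered 1755 in PTC against normal, against 5677 with the 2 groups alone, 3153 with JK arrays alone and 6370 with array weights (1182 to 1768 with an array left out). In ATC against normal they were 4246, against 6318 with the 2 groups alone, 4013 with the title block, 3921 (JK) and 7358 with weights. In recurrent against normal they were 4196, against 3779 (block), 5150 (JK), 6245 (weights), 4114 (dim genes left out) and 3998 (centring). In ATC against PTC they were 2125, against 4587 with the 2 groups alone and 6321 with weights (1344, without PTC 2, to 2115 with an array left out). In recurrent against ATC they were 535, against 99, 933 (JK), 1360 (weights), 18 (bare-number arrays) and 1259 (no recurrent arrays 2 and 3), and 286 (without ATC 3) to 844 (without recurrent 2) with an array left out. Members called other than Dlk1 numbered 1 in PTC against normal, against 4 with the 2 groups alone and 5 with weights. In ATC against normal they were 1 (4246), against 4 with the 2 groups alone (6318), 0 with the title block (4013), 2 with JK arrays (3921) and 4 with weights (7358). With an array left out they were 0 (without ATC 1 or 2) to 1. In recurrent against normal they were 1 (4196), against 2 with the block (3779), 6 with JK arrays (5150) and 4 with weights (6245). They were 2 with dim genes left out (4114) and 2 with centring (3998). With an array left out they were 1 to 3 (without recurrent 4), where 2 were called without recurrent 1, 5, 6 or 7. In ATC against PTC they were 1 (2125), against 2 with the 2 groups alone (4587), 3 with weights (6321) and 2 with JK arrays, where the count over all features is not given here.

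Differences that turned direction were all uncalled. In ATC minus normal, Igf2 was -0.046 with the mean of probe sets, and Grb10 -0.45 with the block and -0.074 with the mean of probe sets. In recurrent minus normal, Grb10 was 0.031 with weights and 0.036 without recurrent 2 and 3, and Rian -0.37 with the block, -0.21 with JK arrays and -0.30 to 0.30 with an array left out. With JK arrays in ATC minus PTC, Igf2 was 0.085, Peg3 0.10 and Cdkn1c 0.51 (0.071 with the block). In recurrent minus ATC, JK arrays gave H19/Mir675 -2.47 and Peg3 -2.06. There Ndn was 0.017 with weights, 0.12 with bare-number arrays and 0.17 without recurrent 2 and 3. With an array left out, Peg3 ran from -0.08 to 0.84, Mest from -0.39 to 0.59 and Ndn from -0.50 to 0.028. Correlations with Dlk1 without arrays 1 and 7 turned for Meg3 (-0.28), H19/Mir675 (-0.62), Peg3 (-0.74) and Mest (-0.28). With a recurrent array left out they ran from -0.03 to 0.41 for H19/Mir675, -0.37 to 0.13 for Plagl1, -0.20 to 0.08 for Ndn and -0.33 to 0.04 for Grb10.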
